A study of Danio rerio with 6 samples.

Results

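The set described here is made of the glutathione, thioredoxin and antioxidant enzymes of the zebrafish brain, with the selenoproteins and the regulators that belong to them. A target, the short stretch of transcript that a group of array probes reads, was a member when the gene name in the array annotation matched the families of glutathione S-transferases, glutathione peroxidases, peroxiredoxins, thioredoxins, glutaredoxins, superoxide dismutases, methionine sulfoxide reductases, sestrins, selenoproteins, or catalase, nqo1, haem oxygenase, NFE2L (NRF) factors, KEAP1 or glutamate-cysteine ligase. The zebrafish symbol was used first, and the homologue in another species where the symbol was blank. This gave 86 of the 38489 targets on the array, 34 by zebrafish symbol and 52 by homologue, under 51 names. Targets named by a homologue are written in capitals, and such a name cannot separate the duplicated copies that zebrafish have of many genes.

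The brains came from AB-strain male zebrafish aged 12 months, each read on an array of its own. The 3 lead-exposed fish had been kept in 100 ppb lead, given as lead acetate, as embryos, from before 2 to 72 hours after fertilization, and then in clean water. The 3 control fish had been kept at 0 ppb, and all fish were reared at 28 °C. RNA of each brain was read on a one-colour NimbleGen oligonucleotide array, so the comparison asks whether a brief exposure of the embryo is visible in the RNA of the old adult brain.

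Glutathione, a small peptide with a free thiol, is made by glutamate-cysteine ligase (gclc, the catalytic subunit, and gclm, the modifier), which sets the rate, and then by glutathione synthetase. Glutathione peroxidases use it to reduce peroxides, glutathione S-transferases couple it to electrophiles, glutaredoxins use it to reduce disulfides, and glutathione reductase recycles it with NADPH. The thioredoxin system works beside it and feeds the peroxiredoxins and the methionine sulfoxide reductases. Several of these enzymes carry selenium as selenocysteine, and in mice selenoprotein P, a secreted protein, carries selenium to the brain. NRF2, held back by KEAP1, switches many of these genes on under oxidative or electrophilic stress. Lead binds thiol groups, which is why this system is of interest after lead.

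Each array gave a similar distribution, with a median log2 intensity between 10.96 and 11.02. Probes of random sequence set a background limit at their 95th percentile on each array, and 50.6% to 58.3% of all targets were above it. Of the 86 members, 65 were above it on all 6 arrays, 6 on some and 15 on none. The values of these 15 are called dim, since they cannot be told from background. The image names numbered the control arrays 1 to 3 and the lead-exposed arrays 4 to 6. Group therefore cannot be told apart from whatever this number stands for. The arrays of replicate 1 of both groups also lacked a prefix that the image names of the other 4 carried, and values within each kind of array are given where they matter.

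No member passed the test. In limma, 0 of 38489 targets had an adjusted p under 0.05, and the smallest adjusted p over all targets was 0.568. At an unadjusted p under 0.05 there were 2768 targets (7.19% of all), and 2 of the 86 members (2.33%), a selenium-binding protein 1 target and a selenoprotein P target, both lower in the lead-exposed brains. Of all targets, 3.0% were lower and 4.19% higher at this level. Among targets above the background limit on all 6 arrays the shares were alike, with 2 of 65 members (3.08%) and 554 of 18284 targets (3.03%). Values of the 2 groups did not overlap for 13.1% of all targets and for 9 members (10.5%). Lead-exposed values were all below control values in 7 members (8.14%, against 6.09% of all targets) and all above them in 2 members (2.33%, against 7.01%). None of the 180 targets in the authors' deposited table of altered probes was a member. All differences below are therefore measured values that did not pass the test, and they are given as log2 intensity, lead-exposed minus control, with limma's standard error (SE). With 3 brains in each group, the smallest p that exact permutation allows for any target is 0.1.

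Member differences were mostly small and mostly of one sign. The lead-exposed mean was the lower in 61 of 86 members and the higher in 25. The share of lower means was thus 70.9%, where 50.8% of all targets were lower. The median member difference was −0.10, where the median over all targets was −0.00, and 49 members differed by at most 0.2 in either direction. Among the 65 members above the background limit on all 6 arrays, 75.4% were lower, against 53.9% of the 18284 targets of the whole array that met the same limit. These shares describe the set and carry no test, since the targets of a pathway share RNA samples and are not independent. The median depended on 1 brain, and without lead-exposed brain 3 it was −0.03, with 65.1% of members lower. Within the arrays that carried the image prefix the median was −0.09 (2 brains in each group), and between the single pair without it −0.16.

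**Figure D1:**
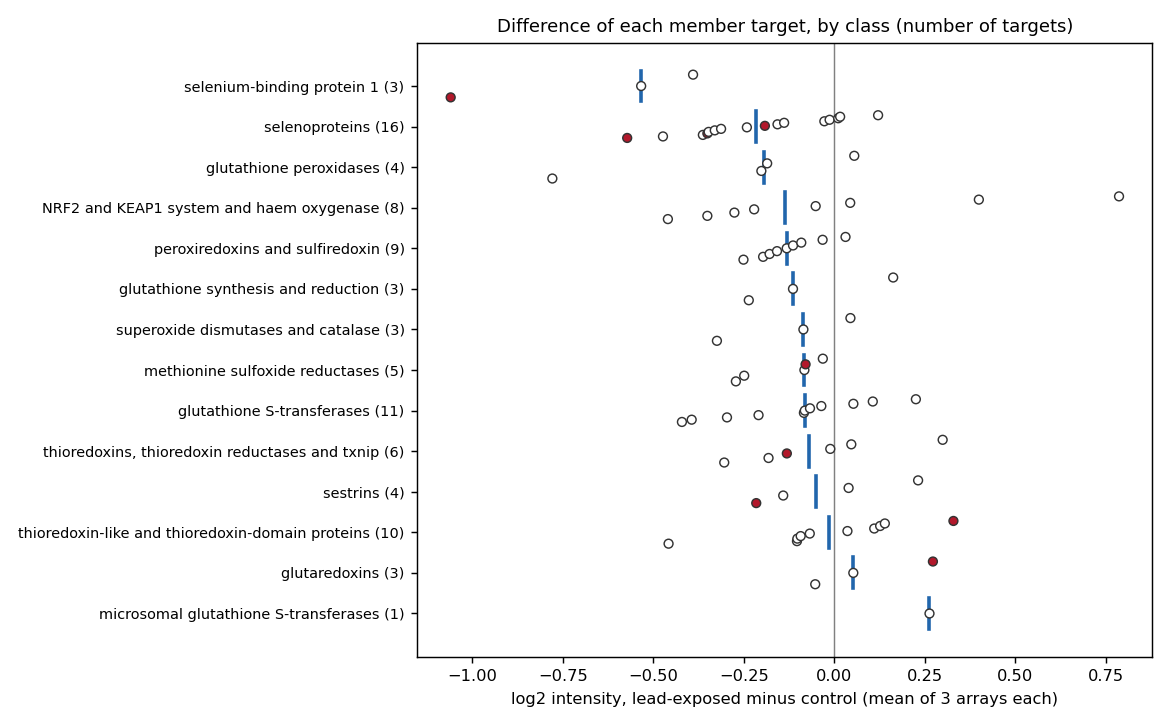
Each circle is the difference of a member target (log2 intensity, mean of 3 lead-exposed minus mean of 3 control arrays, horizontal axis), grouped by class with the number of targets in brackets. Blue bars mark the median of each class and filled red circles mark targets whose groups did not overlap. Selenium-binding protein 1 (median −0.53) and the selenoproteins (median −0.22) sit furthest to the left, and the glutaredoxins sit at 0.05. The glutaredoxin class leaves out glrx3, which is drawn with the thioredoxin-like and thioredoxin-domain proteins.

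The lowest member of all was selenium-binding protein 1, which binds selenium but is not itself a selenoprotein and entered the set through the letters of its name. In humans it is a methanethiol oxidase. The target SELENBP1 TC241769 (chromosome 16, 35055700 to 35060899 in the array annotation) had log2 intensities of 12.59, 12.29 and 12.18 in the control brains and 11.27, 11.95 and 10.65 in the lead-exposed brains. Every lead-exposed value was below every control value, and lead-exposed brain 3 was lowest. The mean was 12.35 ± 0.21 in controls and 11.29 ± 0.65 in lead-exposed brains (SD, n = 3), a difference of −1.06 (SE 0.32), or 2.08-fold lower, with an unadjusted p of 0.0136 and an adjusted p of 0.607 in limma. All 3 of its probes were lower, by −1.15, −0.89 and −1.24. Leaving out each brain in turn kept the difference between −1.39 and −0.74.

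The zebrafish symbol selenbp1 belongs to 2 other targets, which the annotation gives on chromosome 16 (27208274 to 27227327) and which overlap each other. Whether this is another place than that of TC241769 cannot be told, since targets of different sources do not appear to share 1 set of coordinates. OTTDART00000026709 read 13.72, 13.58 and 13.24 in controls and 12.95, 13.42 and 12.57 in lead-exposed brains. The difference was −0.53 (SE 0.24, adjusted p 0.717 in limma), and the second lead-exposed brain lay inside the control range. OTTDART00000026710 differed by −0.39. In all 3 targets lead-exposed brain 3 was lowest and lead-exposed brain 2 was closest to the controls. Their median difference was −0.43 within the arrays with the image prefix and −0.77 in the pair without it.

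Selenoprotein P was the member with the most targets, 7, and the mean was lower in each, with differences from −0.57 to −0.14. Of these, 5 lie within the same stretch of chromosome 25 (16816793 to 16819014), 2 of them spanning all of it, so they share a place in the genome and are not replicates of each other. ZV700S00002446 gave 13.08, 12.78 and 12.90 in controls and 12.59, 12.62 and 11.83 in lead-exposed brains, with no overlap of the groups. Its difference was −0.57 (SE 0.23, 1.49-fold lower), with an unadjusted p of 0.0455 and an adjusted p of 0.684 in limma. Of its 3 probes 1 did not share the difference (0.03, beside −0.59 and −0.51). Without lead-exposed brain 3 the difference was −0.31.

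The other 4 targets at that place gave differences of −0.36, −0.33, −0.35 and −0.47. The value of −0.33 is that of TC238798_R, which has 2 probes and a suffix that the sources used here do not explain. ZV700S00000130 read 13.43, 13.46 and 13.36 in controls and 13.17, 13.26 and 12.78 in lead-exposed brains, again with no overlap, a difference of −0.35 (SE 0.16). Relative to the control mean, the median of the 5 targets was −0.30 in lead-exposed brain 1, −0.07 in brain 2 and −0.81 in brain 3. All 5 were lower both within the arrays with the image prefix (median −0.39) and in the pair without it (median −0.48). The target on chromosome 8, ZV700S00000987, reads a second place with the same homologue name. It had values of 15.18, 15.02 and 15.02 in controls and 14.77, 15.13 and 14.38 in lead-exposed brains, a difference of −0.31 (SE 0.20) with overlapping groups. The target on chromosome 2 was dim and differed by −0.14.

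**Figure D2:**
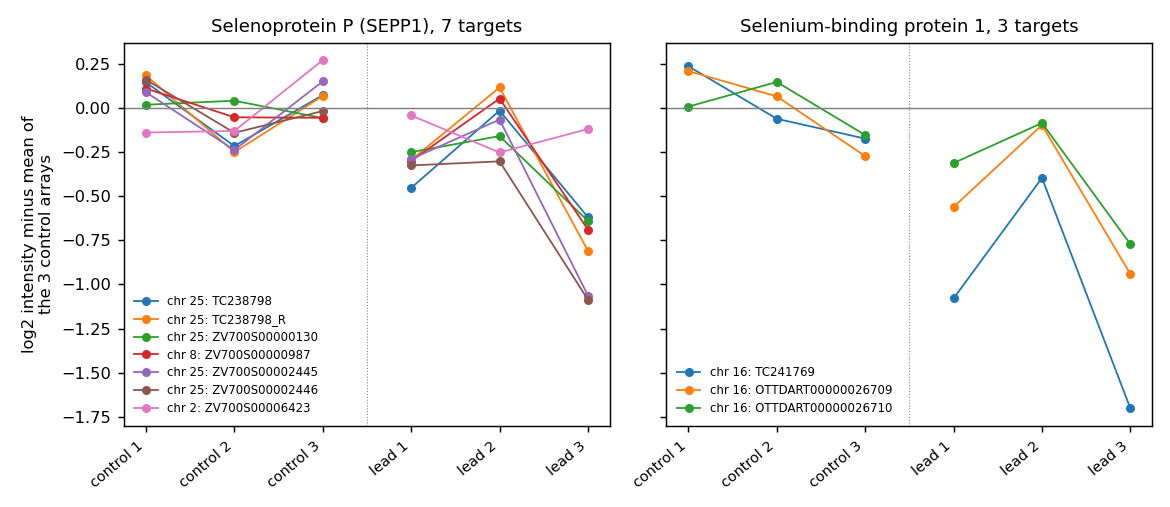
Lines join the values of each target over the 6 arrays (log2 intensity minus the mean of the 3 control arrays, vertical axis), for the 7 selenoprotein P targets on the left and the 3 selenium-binding protein 1 targets on the right. In 9 of the 10 targets the third lead-exposed brain is lowest, and SELENBP1 TC241769 is lower in all 3 lead-exposed brains than in any control.

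The 16 selenoprotein targets together had a median difference of −0.22, with 13 lower and 3 higher. Beside selenoprotein P they cover selenoproteins W, T, M and N. Selenoprotein W, a small selenoprotein abundant in muscle and brain, has 2 overlapping targets on chromosome 5 that did not give the same result. SEPW1 ZV700S00000071 read 13.83, 13.98 and 13.61 in controls and 13.36, 13.74 and 13.28 in lead-exposed brains (difference −0.35, SE 0.17), whereas SEPW1 TC259358 differed by −0.03 (SE 0.14). SEPN1, named for selenoprotein N of the endoplasmic reticulum, had 11.06, 10.94 and 10.98 in controls and 10.81, 10.71 and 10.87 in lead-exposed brains. Its groups did not overlap, and the difference was −0.19 (SE 0.12, unadjusted p 0.149, adjusted p 0.773 in limma). The 5 targets of selenoprotein T, also of the endoplasmic reticulum, ranged from −0.24 to 0.12. Selenoprotein M differed by 0.01 (SE 0.13).

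SEPX1 is an older name of methionine sulfoxide reductase B1, a selenoenzyme that repairs oxidised methionine. All 4 SEPX1 targets were lower in the mean, from −0.27 to −0.08. The brightest, ZV700S00001215 on chromosome 12, gave 14.28, 14.14 and 13.97 in controls and 13.76, 14.20 and 13.61 in lead-exposed brains (difference −0.27, SE 0.19), so the groups overlapped through lead-exposed brain 2. ZV700S00002101 did not overlap but was dim, with all 6 values between 6.75 and 6.89. MSRA, the reductase of the other methionine sulfoxide form, differed by −0.03 (SE 0.12).

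Glutathione peroxidases reduce hydrogen peroxide and lipid peroxides. The duplicated copy gpx1b (chromosome 6, 22590429 to 22593339) had the second lowest difference of all members, −0.78 (SE 0.39, unadjusted p 0.086, adjusted p 0.728 in limma). Its values were 10.54, 9.80 and 9.55 in controls and 9.21, 9.84 and 8.50 in lead-exposed brains, all below the background limit, and the groups overlapped. All 3 probes were lower, by −1.16 to −0.48. GPX1 on chromosome 11 was bright and differed little, with 14.08, 14.16 and 14.31 in controls and 14.09, 14.27 and 13.64 in lead-exposed brains. Its difference of −0.19 (SE 0.19) was −0.00 without lead-exposed brain 3. GPX4, the peroxidase of membrane lipids, differed by 0.06 and the dim GPX2 by −0.20.

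Superoxide dismutases turn superoxide into peroxide, sod2 in mitochondria and sod1 mainly in the cytosol, and catalase breaks the peroxide down. The mitochondrial sod2 (chromosome 20, 31740904 to 31749273) read 14.15, 14.19 and 13.96 in controls and 13.66, 14.14 and 13.53 in lead-exposed brains. Lead-exposed brains 1 and 3 lay below all controls and brain 2 within them, a difference of −0.32 (SE 0.19, adjusted p 0.765 in limma). All 3 probes were lower. The cytosolic sod1 also had lead-exposed brains 1 and 3 below all controls, with 14.15, 14.13 and 14.07 against 13.90, 14.28 and 13.90, a difference of −0.09 (SE 0.15). CAT differed by 0.04 (SE 0.16).

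Glutathione synthesis showed little. The catalytic gclc gave 14.16, 14.23 and 14.24 in controls and 14.20, 14.07 and 14.02 in lead-exposed brains (difference −0.11, SE 0.12). The modifier gclm gave 12.23, 12.27 and 12.03 against 12.05, 12.03 and 11.74, with a difference of −0.24 (SE 0.15, unadjusted p 0.149, adjusted p 0.773 in limma). All 3 probes of each were lower. A further target with the homologue name GCLC was dim and differed by 0.16.

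The 11 glutathione S-transferase targets had a median of −0.08, with 8 lower and 3 higher. GSTO1, named for the omega class, had 3 targets close together on chromosome 13. The one with the smallest p, ZV700S00003700, read 12.75, 12.52 and 12.61 in controls and 11.68, 12.63 and 12.31 in lead-exposed brains. The difference was −0.42 (SE 0.25), and here lead-exposed brain 1 was lowest and brain 2 within the control range. The other GSTO1 targets differed by −0.30 and −0.21. GSTP1, the pi class, is a known target of NRF2 in mammals. Its brightest target differed by −0.08 (SE 0.13), and the others by 0.11 and, for BC083467.1_R, 0.05. A gstp1.1 target that was not a member differed by 0.39 (SE 0.20) with overlapping groups, and was above the background limit on 5 arrays. For GSTT1, the theta class, 2 targets at the same place on chromosome 8 went opposite ways, −0.39 and 0.23, and both were dim. The third GSTT1 target, on chromosome 21, differed by −0.07 (SE 0.31). The target MGST3, a microsomal transferase, was dim and differed by 0.26.

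Peroxiredoxins are abundant thiol peroxidases. Of their 9 targets 8 were lower and 1 higher, with a median of −0.13 and a range of −0.25 to 0.03. The neuronal cytosolic form in mammals, prdx2, read 13.21, 13.03 and 12.78 in controls and 12.64, 13.22 and 12.40 in lead-exposed brains (difference −0.25, SE 0.24). Lead-exposed brain 2 had the highest value of all 6, brain 3 the lowest. The mitochondrial prdx3 had 3 targets, all lower. The brightest gave 14.21, 14.40 and 14.06 against 13.87, 14.17 and 14.04, a difference of −0.20 (SE 0.15). PRDX1 differed by −0.03 and PRDX4 by 0.03.

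Thioredoxin itself, under the name TXN on chromosome 7, was among the 25 members with a higher mean. It read 11.78, 12.18 and 12.21 in controls and 12.38, 12.13 and 12.55 in lead-exposed brains, a difference of 0.30 (SE 0.18, adjusted p 0.769 in limma), with all 3 probes higher. The inhibitor of thioredoxin txnipa gave 12.28, 12.52 and 12.18 in controls and 12.51, 12.22 and 11.72 in lead-exposed brains (difference −0.18, SE 0.22). Without lead-exposed brain 3 this became 0.03. The second copy, txnipb, was dim and differed by −0.30. The class of thioredoxin-like and thioredoxin-domain proteins, which here includes glrx3 and TXNL2, had 10 targets. Of these 5 were lower and 5 higher, with a median of −0.02. Among them txndc9, a partner of the chaperonin that folds tubulin and actin, had 3 overlapping targets on chromosome 9 that disagreed. OTTDART00000025689 differed by −0.46 (SE 0.24), OTTDART00000025691 by 0.13 and the dim OTTDART00000025690 by 0.11.

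The 2 members whose lead-exposed values were all above the controls (2.33%, against 7.01% of all targets) were both glutaredoxins. These enzymes use glutathione to free thiols. The glrx target OTTDART00000026484 (chromosome 21, 2383615 to 2389380) read 11.74, 11.76 and 11.59 in controls and 11.82, 11.98 and 12.10 in lead-exposed brains. The difference of 0.27 (SE 0.13) had an unadjusted p of 0.0789 and an adjusted p of 0.724 in limma. The overlapping glrx target OTTDART00000026483 differed by 0.05. The second was glrx3, a glutaredoxin that handles iron-sulfur clusters, at 0.33 (SE 0.16), with dim values of 10.00, 10.10 and 9.67 against 10.13, 10.42 and 10.20. Its 3 probes differed by −0.46, 0.42 and 0.41. The bright TXNL2 target differed by −0.09 (SE 0.13), although TXNL2 is an older name of the same gene in humans. The mitochondrial glrx5 differed by −0.05. The glrx2 targets, which were not members, differed by −0.14 (SE 0.16) and, with dim values, −0.00.

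**Figure D3:**
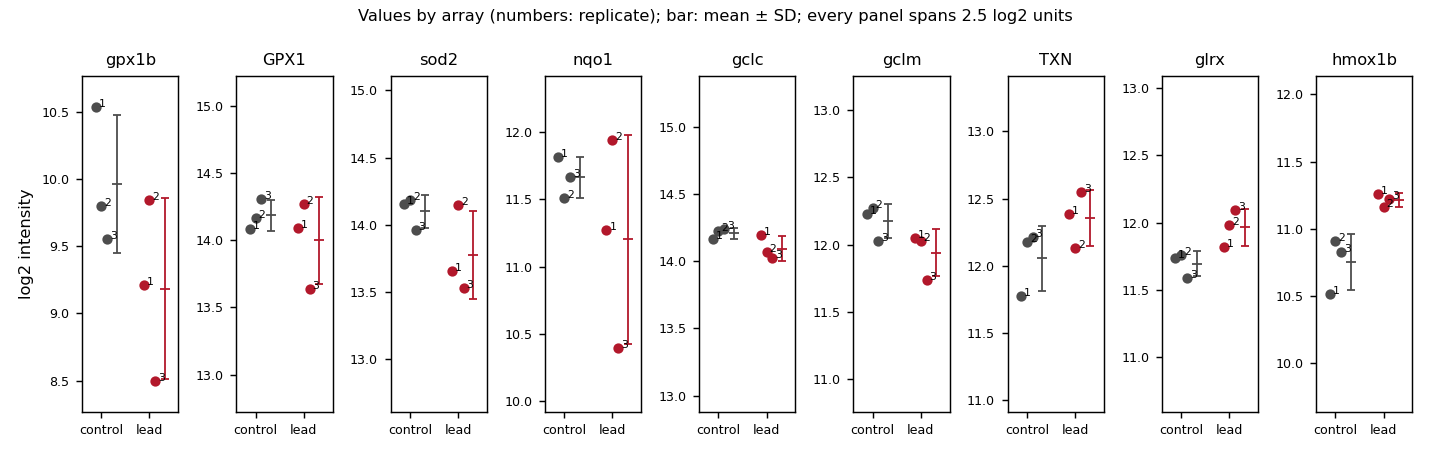
Points are the log2 intensities of 8 members and of hmox1b on each array (grey control, red lead-exposed, replicate numbers beside the points), with bars for the mean ± SD (n = 3), and each panel spans the same width of the log2 scale on its own axis. The nqo1 panel shows OTTDART00000025338. Lead-exposed brain 3 is lowest for gpx1b, GPX1, sod2, nqo1, gclc and gclm, and it is the highest for TXN and glrx.

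In the NRF2 system, the target NFE2L2, the name of NRF2 itself, read 12.81, 12.79 and 12.39 in controls and 12.44, 12.44 and 12.45 in lead-exposed brains. The difference was −0.22 (SE 0.15). Control brains 1 and 2 lay above all lead-exposed brains and control brain 3 below them, and all 3 probes were lower. A target with the joint homologue name NFE2L3 /// NFE2L2 /// NFE2L1 /// AF125534 /// NFE2 had the highest difference of all members, 0.79 (SE 0.56). It read 9.87, 8.18 and 10.54 in controls and 10.09, 10.29 and 10.57 in lead-exposed brains. The groups overlapped, and the target was above the background limit on 2 arrays. The factor nfe2l1a differed by 0.04 (SE 0.11), and the repressor keap1a by −0.05 (SE 0.19). The NRF2 target nqo1, a quinone reductase, has 3 overlapping targets on chromosome 7 (44718162 to 44737225). OTTDART00000025338 gave 11.82, 11.51 and 11.66 in controls and 11.27, 11.94 and 10.39 in lead-exposed brains, a difference of −0.46 (SE 0.37). Brain 2 was the highest of all 6 and brain 3 the lowest. The other 2 nqo1 targets differed by −0.35 and −0.28, and without lead-exposed brain 3 the 3 differences were −0.06, −0.00 and −0.04. The target with the homologue name HMOX1 /// HMOX2, haem oxygenases that break down haem, differed by 0.40 (SE 0.37) with control values from 11.21 to 12.66.

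Sestrins are stress proteins that restrain the growth kinase mTORC1. The sesn1 target OTTDART00000010474 read 12.47, 12.41 and 12.41 in controls and 12.13, 12.39 and 12.11 in lead-exposed brains. The groups did not overlap, by a margin much smaller than the spread, and the difference was −0.22 (SE 0.13). Its overlapping partner differed by −0.14, the SESN1 target on chromosome 15 by 0.04 and sesn2 by 0.23. A further sesn2 target that was not a member differed by 0.40 (SE 0.20) with overlapping groups.

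The lowest of the 6 values lay in lead-exposed brain 3 for 44 of 86 members (51.2%), against 20.1% of all targets. Among members above the background limit on all 6 arrays the count was 38 of 65 (58.5%), against 23.6% of all targets that met this limit. Median deviations of the members from the control mean were −0.13, 0.04 and −0.20 in lead-exposed brains 1, 2 and 3, and 0.05, −0.00 and −0.02 in the controls. Lead-exposed brain 2 thus sat with the controls. Without it 20 of 86 members had an unadjusted p under 0.05 in limma, all of them lower. Targets of the whole array at this level went from 2768 (7.19%) to 5045 (13.1%). These were 2617 lower and 2428 higher, in place of 1155 lower and 1613 higher. No adjusted p was under 0.05. The brain left out here was the one that these same values placed nearest the controls. Lead-exposed values also scattered more than control values in 60 of 86 members, with a median SD of 0.24 against 0.14, where all targets had 0.21 and 0.19.

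**Figure D4:**
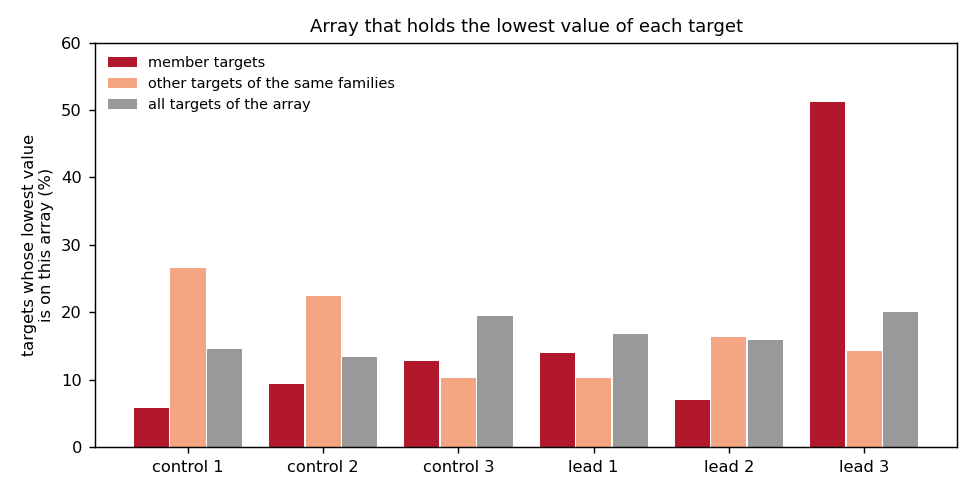
Bars give the percentage of targets whose lowest value of the 6 lay on each array, for the 86 members (dark red), 49 further targets of the same families (orange) and all 38489 targets (grey). Lead-exposed brain 3 held the lowest value of 51.2% of members, 14.3% of the further family targets and 20.1% of all targets.

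Some cell type markers were also lowest in lead-exposed brain 3. Each listed gene was read by its brightest target alone, and targets named by homologue were not used. A gene counts as measured when such a target was on the array. Of 10 listed markers of astroglia and radial glia 7 were measured, of which aqp4 was dim. Their mean deviation from the mean of all 6 arrays was −0.05, 0.17 and −0.32 in lead-exposed brains 1, 2 and 3. Summed linear intensity was 128187 to 136976 in controls and 103298 to 137360 in lead-exposed brains. Of 10 microglial and macrophage markers 5 were measured, with deviations of −0.17, 0.77 and −1.35, and summed intensity of 33123.8 to 49787.1 and 15334.9 to 35660.0. Of these, c1qb and csf1ra were dim, mpeg1.1 was above the background limit on 1 array and c1qa on 4. The bright apoeb differed by −0.74 (SE 0.28) without overlap, with an unadjusted p of 0.0333 and an adjusted p of 0.674 in limma. The 9 measured of 10 erythrocyte markers deviated by 0.54, 0.02 and −0.56 (summed intensity 52466.3 to 90600.1 in controls and 44051.3 to 82628.9 in lead-exposed brains). The 4 measured of 10 neuronal markers deviated by −0.02, 0.01 and −0.06 (summed intensity 148934 to 153160 and 142096 to 148712). The 5 measured of 9 oligodendrocyte markers deviated by 0.07, −0.04 and 0.04. The 10 measured of 11 skeletal muscle markers, of which 7 were dim, deviated by 0.07, −0.14 and 0.05. Endothelial markers went the other way, with 5 of 10 measured, all 5 higher in the mean and 3 of them (cldn5b, egfl7 and flt1) at an unadjusted p under 0.05 in limma, of which cldn5b and flt1 were dim and egfl7 was above the background limit on 2 arrays. The part of cell composition in the member differences was not tested. In whole brains fewer cells of a type and less RNA per cell cannot be told apart. The neuronal markers snap25a and snap25b and the glial marker gfap were above the background limit on all 6 arrays, which fits the labelled tissue.

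Of the 17 names with over 1 target, 9 had all targets lower, 1 had all higher and 7 had targets in both directions. Among the 61 lower members, every probe was lower in 27 (44.3%), and among the 25 higher members every probe was higher in 9 (36%). In either direction, all probes had the same sign in 36 of 86 members and in 15219 of all 38489 targets. Probes and overlapping targets of a gene share their RNA, so such counts show only how far a value rests on a single stretch of transcript.

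The array also carried 49 targets of the same families whose annotation fields did not give the family name. Their RefSeq accession or synonym did. Over all 49 the means were not mostly lower, but fewer of these targets were bright. Of them, 25 were above the background limit on all 6 arrays, 9 on some and 15 on none. Of the 86 members, 65 were above it on all 6. Among the 25, more means were lower than higher. The part of brightness in the contrast with the members was not tested. The 49 targets were picked out after the values of the members had been seen. Of these, 23 were lower and 26 higher, with a median of 0.02, and 6 (12.2%) had an unadjusted p under 0.05, 4 higher and 2 lower, where 7.19% of all targets did (4.19% higher and 3.0% lower). With them added, 84 of 135 targets were lower (62.2%) and the median was −0.08. Lead-exposed brain 3 held the lowest value in 7 of 49. The haem oxygenase hmox1b gave 10.52, 10.91 and 10.83 in controls and 11.26, 11.16 and 11.22 in lead-exposed brains, with no overlap. Its difference was 0.46 (SE 0.14), with an adjusted p of 0.618 in limma.

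Glutathione reductase, gsr, had 2 such targets, at 0.30 (SE 0.14) and, with dim values, 0.33 (SE 0.16). The brighter read 12.24, 12.30 and 12.17 in controls and 12.72, 12.55 and 12.34 in lead-exposed brains, without overlap. Glutathione synthetase, gss, which completes glutathione, differed by 0.49 (SE 0.32). The selenoprotein targets selenow2b and selenou1b differed by 1.02 and 0.51, the first with dim values, and selenoo1 by −0.38 (SE 0.13). Of the 3 selenow2b probes 2 were lower, and the probe differences ran from −0.17 to 1.51. A gpx4b target differed by −0.19, and the thioredoxin txna by −0.12. None of these 49 targets was in the authors' deposited table of altered probes.

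Other genes of the pathway were taken from 4 lists, again with the brightest target of each gene and without targets named by homologue. Of 23 genes of glutathione supply and export 14 were measured, 9 lower and 5 higher, with a median of −0.09. Here cbsa, a cystathionine beta-synthase that starts cysteine synthesis from homocysteine, differed by −0.59 (SE 0.24). It was above the background limit on 4 arrays, and its values in lead-exposed brains 1 and 3 were below that limit. The esterase esd, which frees glutathione in formaldehyde removal, differed by −0.29 with dim values. Both had an unadjusted p under 0.05 in limma, with adjusted p of 0.686 and 0.682, whereas cbsb, the second copy of cbsa, differed by 0.06. Of 13 genes of NADPH supply 8 were measured, 6 lower and 2 higher, and all lay between −0.09 and 0.04. Of 25 partners and other targets of NRF2 12 were measured, 7 lower and 5 higher, with a median of −0.05. Of 10 genes of selenoprotein synthesis 4 were measured, all higher by 0.01 to 0.15. No listed gene had an adjusted p under 0.05.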

How the data were processed

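The authors deposited linear intensity values, 1 per target and array, from RMA according to the submitters' processing notes, with no version stated there. RMA corrects background, equalises the array distributions and summarises the probes, so a shift shared by all RNA is removed. The deposited series table holds intensity of 140663 single probes, of which 27114 have random sequence. The deposited list of altered probes holds, per the file headers, log2 ratios, a fold score with a minus sign for lower targets, and p-values by a test that the sources used here do not give.

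The log2 of each target intensity was compared with lmFit and eBayes of limma 3.58.1 in R 4.3.3, 2-sided, without covariates, over all 38489 targets, with Benjamini-Hochberg adjustment over all of them. The code was tested on simulated data. Members, lists and classes were chosen with earlier results of these data known. Named by rule were members at unadjusted p under 0.05, the brightest and the smallest p of each class, a fixed list of central genes, and genes whose targets had opposite signs over 0.5 apart. Other members were named after their values were seen. Names were updated through NCBI tables of current symbols (8 members by synonym). Coordinates are those of the array annotation, whose scaffold names carry Zv7. Targets of different sources do not appear to share 1 set of coordinates. The sesn2 member is given at 33971356 to 33987637 of chromosome 19, and a further sesn2 target at 41031553 to 41047825. The annotation does not state exon or UTR, and 4 members have no position. The suffix _R of some targets is not explained in the sources used here. Each sample is 1 fish, but shared tanks are not stated, so the p-values reflect only how these fish vary. The number of arrays limits the precision. Replicate numbers did not pair the samples. Alternatives covered the value source, dim-target filters, array weights, normalization, variance model, image prefix, replicate block, each array left out and several targets per gene. Promoter and protein sequences and female brains were not analysed here.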

Additional observations from a re-analysis of the deposited data

How the results depend on the processing

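No target had an adjusted p under 0.05 under any alternative run, with unadjusted counts as follows. The median member difference was negative in every alternative. It ranged from −0.15 without lead-exposed brain 2 to −0.03 without lead-exposed brain 3, beside −0.10 as reported. These shifts were smaller than 0.085, the SD of the median member level between arrays of a group. That SD is one of levels and not of the difference. Members at an unadjusted p under 0.05 numbered 2 of 86 as reported, where 7.19% of all targets were at this level. From the series value table they numbered 4 of 86 (7.61% of all targets). With array weights they numbered 18 of 86, 17 of them lower (15.4% of all targets, 2748 lower and 3186 higher). With 1 target per name 1 of 55 was at this level (7.11% over the whole array). With the mean over the targets of a name it was 1 of 57 (6.72%). In both settings names in capitals and in small letters were kept apart, so SELENBP1 and selenbp1 entered separately. Over all targets, 741 of 19245 (3.85%) or 882 of 21100 (4.18%) were at this level when dim targets were left out by the median or by the random-sequence limit. With array weights it was 5934 of 38489 (15.4%). Leaving out each brain in turn gave 1 to 20 of 86 members and 1813 to 5045 of all targets (4.71% to 13.1%). Both were highest without lead-exposed brain 2. The replicate block gave 6 of 86 members, where 7.82% of all targets were at this level. The labels' numbers do not justify it as a pairing (correlations of deviations −0.15, 0.14 and 0.26 for numbers 1 to 3). In settings added after the data were seen, 1 of 83 members was at this level without the selenium-binding protein 1 targets. With the other family targets included it was 8 of 135 targets. Of 504 values of the 35 targets named by rule, 462 kept direction and side of the threshold, 30 crossed to an unadjusted p under 0.05 and 5, all of SEPP1 ZV700S00002446, crossed back. The glrx3 target moved to 0.12 from the series table. The sign turned in 6, all with a brain left out. Over such settings glrx5 ranged from −0.15 to 0.027, txnipa from −0.36 to 0.032 and keap1a from −0.23 to 0.10, each turning without lead-exposed brain 3. GSTT1 ZV700S00003794 ranged from −0.37 to 0.17 and turned without lead-exposed brain 3 (0.17), control brain 1 (0.13) or lead-exposed brain 1 (0.0046). SELENBP1 TC241769 stayed at an unadjusted p under 0.05 in 15 of 15 alternatives. The causes were not tested.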

Other observations

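Some further targets of the same families, taken after their values were seen, varied in ways not described above. The msrb2 target OTTDART00000028959, a methionine sulfoxide reductase, read 11.03, 11.02 and 11.19 in controls and 11.58, 11.57 and 11.21 in lead-exposed brains (difference 0.37, SE 0.15), while the other msrb2 target differed by 0.09. The 3 targets of msrb3 differed by 0.45, 0.26 and −0.16. For mgst3b, a microsomal glutathione S-transferase, values were 13.78, 13.74 and 13.78 in controls and 13.33, 13.66 and 13.39 in lead-exposed brains, without overlap (difference −0.30, SE 0.14), whereas the dim MGST3 target was higher in the mean. The selenos target had the widest control range, 10.21 to 12.80, and differed by 1.00 (SE 0.58).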
